A study of Rattus norvegicus with 6 samples.

Results

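Homeobox genes encode transcription factors that bind DNA through a homeodomain, and 61 of them were followed here in the lateral ventricular choroid plexus of the rat at embryonic day 15 (E15) and in the adult. They were chosen by name: the names in the authors' table of genes that differed between these ages were matched to a pattern of homeobox gene families, which found 63 names, and 2 proteins named for binding Pbx or Pax factors were dropped. The count table lists 29479 gene identifiers, of which 10093 have a name in that table. Because the table holds only genes that the authors had called on these same 6 libraries, the members were selected on the age difference itself. Their counts and fold changes between the ages are therefore a description, with no test, and support nothing by themselves. *Pax8* keeps only a part of the homeodomain and *Pax9* lacks it, and both stayed in by name.

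Both lateral ventricular choroid plexuses were taken from untreated Sprague-Dawley rats at E15 and at 6 weeks (adult), and the plexuses of 10 animals made 1 pool. RNA of 3 pools at each age was sequenced, 1 library a pool, and the 3 pools of an age are its replicates. Plexuses were processed in one piece, so stroma, vessels and blood came with the epithelium, and fewer cells of a type cannot be told apart from less RNA per cell.

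Homeobox factors set the identity of regions and cell types in the embryo. In the forebrain they divide the early telencephalon into cortex, hem and ganglionic eminences, and the choroid plexus forms from the dorsal midline beside the cortical hem. Other members act in head mesenchyme, in vessels or as general partners of further homeodomain proteins, and some stay active in adult epithelia.

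The start sites of the members give a first view of what they share outside expression. Promoters of 38 of the 61 genes were matched by symbol to RefSeq sequences of the build GRCr8. The 250 bases before the start are shown for 4 of them. *Msx1* and *Msx2* are close relatives whose counts lay on opposite sides of the age comparison. *Lhx2* was low in E15 pool 2, and *Barhl2* had no adult count. Sequences run 5′ to 3′ along the gene, and capitals mark the GC box GGGCGG or its reverse complement CCGCCC, the sequence bound by Sp1-like factors.
*Msx1* (chr14:77185552-77185801, plus strand): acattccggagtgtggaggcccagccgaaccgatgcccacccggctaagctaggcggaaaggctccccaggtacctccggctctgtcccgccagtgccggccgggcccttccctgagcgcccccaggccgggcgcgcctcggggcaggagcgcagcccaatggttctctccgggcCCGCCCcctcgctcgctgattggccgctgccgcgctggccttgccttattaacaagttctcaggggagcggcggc
*Msx2* (chr17:11102034-11102283, plus strand): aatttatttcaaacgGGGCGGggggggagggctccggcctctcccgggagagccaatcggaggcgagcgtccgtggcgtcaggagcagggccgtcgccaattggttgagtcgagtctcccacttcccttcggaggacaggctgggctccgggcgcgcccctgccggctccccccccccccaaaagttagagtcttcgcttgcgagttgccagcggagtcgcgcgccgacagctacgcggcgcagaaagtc
*Lhx2* (chr3:42535494-42535743, plus strand): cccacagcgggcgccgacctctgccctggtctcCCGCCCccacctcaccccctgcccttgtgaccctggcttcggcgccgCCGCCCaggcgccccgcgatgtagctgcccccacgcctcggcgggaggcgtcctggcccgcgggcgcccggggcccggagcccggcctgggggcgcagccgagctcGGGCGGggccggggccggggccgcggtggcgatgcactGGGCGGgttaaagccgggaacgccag
*Barhl2* (chr14:3485059-3485308, plus strand): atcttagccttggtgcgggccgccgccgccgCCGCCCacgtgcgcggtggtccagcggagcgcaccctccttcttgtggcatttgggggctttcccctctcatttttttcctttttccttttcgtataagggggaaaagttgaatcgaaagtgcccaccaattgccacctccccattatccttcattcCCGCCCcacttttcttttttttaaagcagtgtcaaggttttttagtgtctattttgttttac
A GC box on either strand stood in the 250 bases before the start of 27 of the 38 member promoters (71.1%), compared with 38.9% of 21851 protein-coding promoters of the same length. The median GC content was 63% for members and 54% for all. The 5 other motifs searched, also on both strands, gave shares nearer to the background or below it. The binding core of many homeodomains, TAATTA, was found in 0 of 38 member promoters and in 4.43% of all. The TALE motif TGACAG was present in 7 (18.4% against 15.3%), the ZEB E-box CAGGTG in 6 (15.8% against 16.0%), and the TATA box TATAAA in 2 (5.26% against 12.1%). The POU octamer ATGCAAAT was in 0 of 38 and in 1.71% of all. GC boxes can overlap one another, as in runs of C and G, and a match of letters was not tested as a binding site.

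The libraries held 17875089 to 19204440 counts. Values called normalized counts below are raw counts scaled by TMM factors, which were 1.317 to 1.326 for the E15 pools and 0.735 to 0.773 for the adult pools. Of 10 marker genes of the choroid plexus epithelium 9 could be named. All were read in all 6 libraries except *Otof*, which had 0 counts in adult pool 3. Their summed normalized counts were 441941 to 545363 at E15 and 4075380 to 5008130 in the adult. *Ttr* alone made up most of each sum. E15 pool 1 stood apart from its age, and a chi-square of its counts against pools 2 and 3 came to 56.8 and 47.5 for each degree of freedom, compared with 5.43 between those. Counts are not scaled for transcript length, so levels of different genes are not ranked. In what follows, counts are raw and given for pools 1, 2 and 3 in order. Log2 fold changes are E15 minus adult with standard errors (SE), and means are of normalized counts with the SD of 3 pools. Each SE was back-calculated as the absolute log2 fold change over the square root of F from edgeR's quasi-likelihood test, so it is approximate.

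Most of the members were higher at E15. Of the 59 that had more than 10 counts in all and were fitted, 52 were higher at E15 and 7 in the adult. Over all 16643 genes tested these numbers were 8997 and 7646. A gene is called when edgeR's quasi-likelihood test gives it an adjusted p under 0.05, and 54 members were called, beside 64.0% of the 16643 genes tested. The 54 were 48 at E15, beside 34.7% of all genes tested, and 6 in the adult, beside 29.3%. Since the rule took its genes from this contrast, nothing is read from these shares. The median log2 fold change was 3.04 over the members and 0.14 over all genes tested. A fitted fold above 10 at E15 was found for 28 members. Above 2-fold there were 48 members at E15 and 5 in the adult. Shares of all genes above these folds were not computed, so nothing is read from these counts either. The E15 pools all lay above the adult pools for 50 of the 59, beside 38.0% of all genes tested, and the reverse held for 5, beside 32.1%. The members that were not called were *Dlx1*, *Irx2*, *Meis1*, *Pax9* and *Pou2f1*, and *Dbx1* and *Onecut3* had too few counts for the fit.

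**Figure D1:**
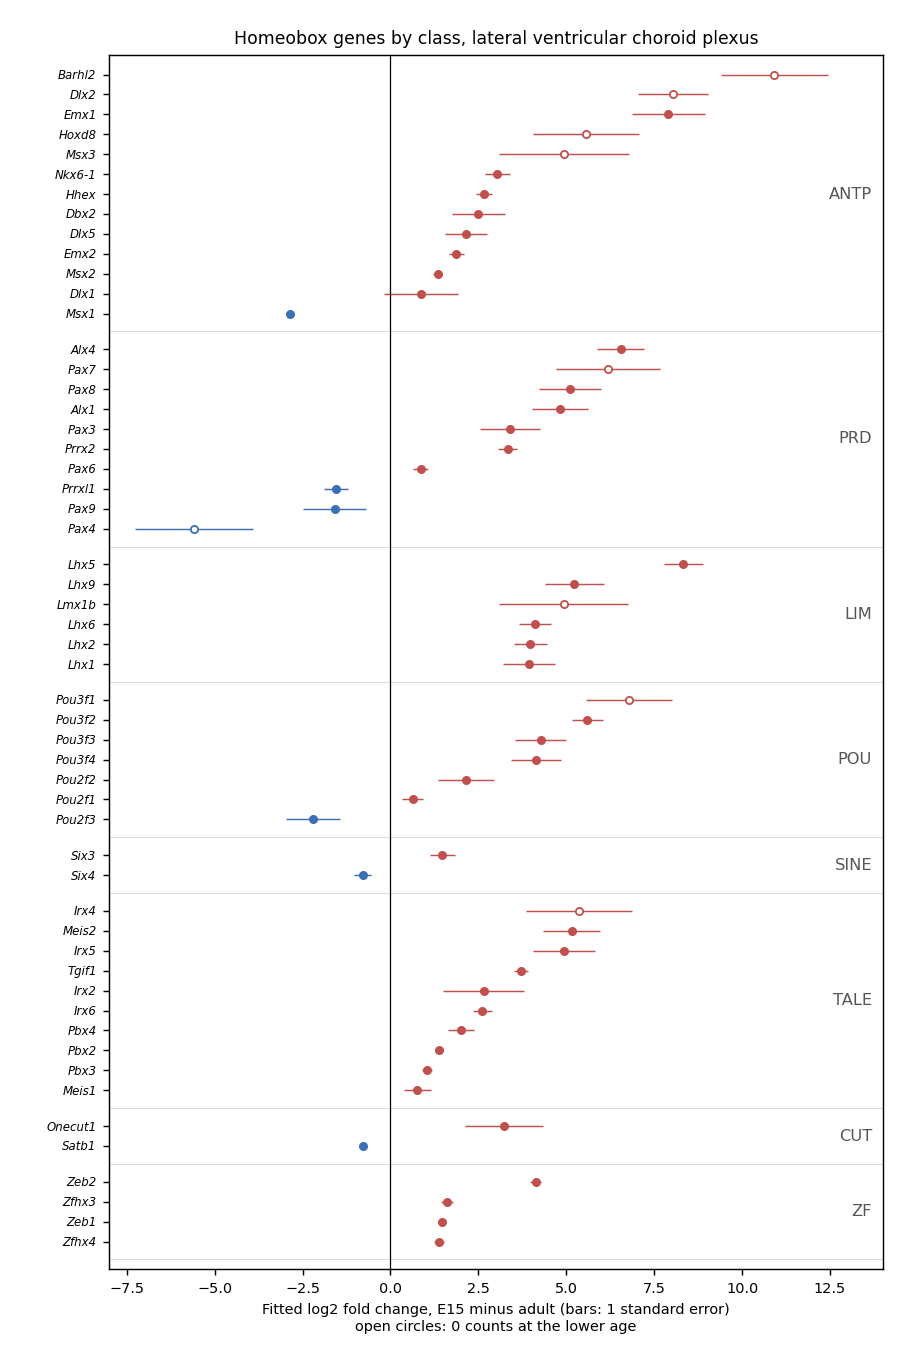
Fitted log2 fold change of 54 fitted homeobox genes (x axis, E15 minus adult, bars of 1 SE), grouped by homeobox class, with open circles for genes at 0 counts at the lower age, whose fitted value depends on the prior count. Of the genes plotted, 47 lie to the right of 0 and 7 to the left, and *Satb1* and *Six4* among the latter move to the right of 0 (0.04 and 0.01) under scaling by total counts only.

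By class, the calls are given as a description of genes chosen on this contrast, beside 34.7% of all genes called at E15 and 29.3% in the adult, and differences between classes were not tested. In the LIM class, whose factors carry LIM domains and specify neuron types, all 6 members were called at E15, with a median log2 fold change of 4.52. Of these, *Lmx1b*, at 14 counts in all, was not called with DESeq2, limma-voom or no count filter. The POU class, factors with a second DNA-binding domain, had 7 members, of which 5 were called at E15 and 1 in the adult (median 4.13). The paired-like and Pax class (PRD) had 12 members with 9 called at E15 and 2 in the adult (median 3.62). The ANTP class, to which Hox, Emx, Dlx and Msx factors belong, had 14 members, of which 13 were fitted, 11 called at E15 and 1 in the adult (median 2.65). The TALE class, partners of other homeodomain proteins, had 11 members with 9 called at E15 and 0 in the adult (median 2.61). Zinc finger homeobox genes (4 members) were all called at E15, with a median of 1.53. The SINE class and the CUT class each had 2 genes called at E15 and 1 in the adult.

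**Figure D2:**
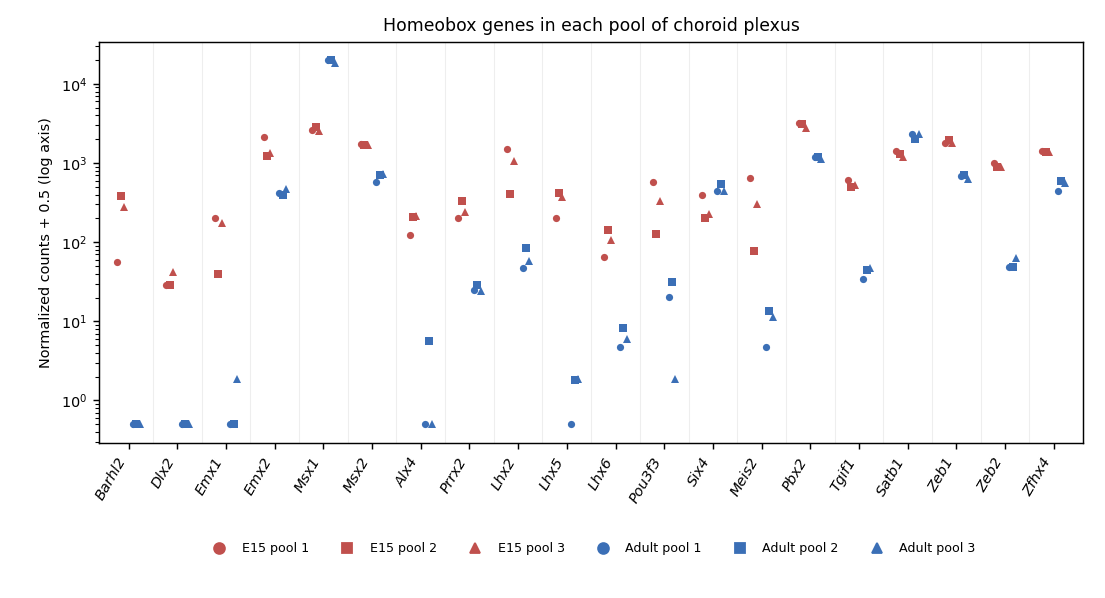
Normalized counts plus 0.5 in each pool (y axis, log scale; red E15, blue adult, symbols for pools 1 to 3) of 20 homeobox genes with the largest fitted changes, the highest counts or 0 counts at one age with a mean of at least 20 at the other. The E15 points lie above all adult points except for *Msx1*, *Satb1* and *Six4*, which are higher in the adult with TMM scaling. Under scaling by total counts only, *Satb1* and *Six4* are near level.

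Among the ANTP factors, the *Msx* genes act in the dorsal midline of the neural tube and in head mesenchyme downstream of BMP signals. *Msx1* and *Msx2* were read in every pool. *Msx1* (ENSRNOG00000006876) had 3198, 3752 and 3220 counts at E15 against 14116, 15374 and 13351 in the adult. Its means were 2677 ± 189 and 19429 ± 946 (SD, n = 3), 7.26-fold higher in the adult (log2 fold change -2.86, SE 0.10). *Msx2* had 2116, 2202 and 2161 counts at E15 against 408, 542 and 535 in the adult. In normalized counts it went the other way from *Msx1*, 2.54-fold higher at E15 (log2 fold change 1.34, SE 0.12), and the pools of the ages did not overlap for either gene. *Msx3*, a marker of the dorsal neural tube, had 7, 1 and 6 counts at E15 against 0 in the adult. That is at least 2.71-fold against a floor of 3 counts over the 3 adult pools, and *Msx3* was not called in fits without any single adult pool (log2 fold changes of 5.00 to 5.02). *Msx3* was also not called with DESeq2 (3.89), limma-voom (2.27) or no count filter (4.94). The direction of *Msx1* held under scaling by total counts only, at -2.05.

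The *Emx* genes pattern the dorsal telencephalon, from which cortex and plexus both arise. *Emx2* had 2636, 1589 and 1685 counts at E15 against 299, 301 and 339 in the adult, a log2 fold change of 1.88 (SE 0.22). *Emx1* had 249, 51 and 219 counts at E15 and a single adult count, in pool 3. With 1 adult count the interval of its ratio was wide, 301 (95% interval 53.9 to 11929), and the ratio was at least 67.3 without adult pool 3. Pool 2 was the lowest of the E15 pools for both genes.

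*Barhl2*, a factor of diencephalic and spinal interneurons, had 68, 502 and 357 counts at E15 and 0 in every adult pool. Against the floor it was at least 179-fold higher at E15, or between at least 117-fold and at least 245-fold with 1 pool left out. Its E15 counts were far from even, with the lowest pool, pool 1, also the pool that stood apart over all genes. *Dlx2*, which directs interneuron formation in the ventral forebrain, had 35, 37 and 53 counts at E15 against 0 in the adult, at least 24.2-fold higher at E15. *Dlx5*, of the same family, had 19, 24 and 20 counts against 3, 4 and 1 (log2 fold change 2.16, SE 0.60).

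*Dlx1* differed from its relatives in that no age stood above the other. It had 120, 36 and 15 counts at E15 against 4, 52 and 1 in the adult. Adult pool 2 held 52 of the 57 adult counts and E15 pool 1 held 70.2% of the E15 counts, so single pools set its value. The log2 fold change was 0.86 (SE 1.05), -0.35 without E15 pool 1, and 3.64, then called at E15, without adult pool 2.

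The other ANTP factors act largely outside the forebrain. *Hhex*, needed for liver and vessel progenitors, had 287, 305 and 291 counts at E15 against 30, 22 and 29 in the adult. Its pools agreed closely within E15, with a mean of 233 ± 3.86 there and 37.0 ± 7.39 in the adult, 6.29-fold higher at E15. Beside it, of 8 endothelial markers 6 could be named, and all 6 were higher at E15, with summed normalized counts of 5959 to 7438 at E15 and 665 to 1057 in the adult, and their part in the difference of *Hhex* was not tested. As with the members, a marker has a name only if the authors had called it on this contrast, so counts of markers called, here and for the lists that follow, restate that selection. *Nkx6-1*, a factor of ventral neural progenitors and pancreatic beta cells, had 126, 119 and 84 counts against 6, 8 and 9 (8.24-fold higher at E15). *Dbx2*, of neural tube interneuron progenitors, had 33, 23 and 24 counts against 5, 3 and 0 (log2 fold change 2.50, SE 0.75). Without adult pools 1 or 3 the change of *Dbx2* was 3.31 or 1.91. *Hoxd8* was the only Hox gene among the members, with 5, 6 and 11 counts at E15 against 0 in the adult (at least 4.26-fold). *Dbx1* had 6, 2 and 2 counts at E15 against 0 in the adult (at least 1.94-fold), too few for the fit, and E15 pool 1 held 6 of the 10 counts, without which the bound was 1.14-fold.

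In the PRD class, *Alx4*, *Alx1* and *Prrx2* were higher at E15 in every pool. *Alx4* and *Alx1* shape the face and skull, and *Prrx2* marks skeletal and skin mesenchyme. *Alx4* had 148, 273 and 270 counts at E15 against 0, 4 and 0 in the adult. All adult counts of *Alx4* were in pool 2, and the fitted 93.8-fold difference was at least 87.0-fold without that pool. *Alx1* had 61, 51 and 47 counts against 3, 0 and 0. The ratio for *Alx1* was 30.8 (95% interval 10.3 to 151), and it was at least 20.9 without adult pool 1 and 20.03 (95% interval 6.73 to 98.2) without adult pool 2. *Prrx2* had 244, 425 and 310 counts against 17, 22 and 17, a 10.1-fold difference. Of 11 mesenchymal markers 9 could be named, of which 7 were higher at E15 and 2 (*Dcn* and *Pdgfra*) in the adult. Their summed normalized counts were 42609 to 56421 at E15 and 15990 to 16597 in the adult, with none at 0 in every adult pool, and their part in the differences of these genes was not tested.

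The Pax genes of the class lay on both sides. *Pax6*, which patterns cortex and eye, had 959, 560 and 742 counts at E15 against 265, 220 and 243 in the adult. After scaling this was 1.81-fold higher at E15 (log2 fold change 0.85, SE 0.22), with no overlap between the ages. *Pax3*, of the dorsal neural tube and neural crest, had 19, 79 and 71 counts against 2, 0 and 7 (log2 fold change 3.39, SE 0.85), and 2.75 without adult pool 2 or 4.87 without adult pool 3. *Pax7*, its close relative, had 5, 13 and 16 counts at E15 against 0 in the adult (at least 6.58-fold). *Pax8*, known from thyroid and kidney, had 21, 32 and 22 counts at E15 against 1 in the adult. The ratio for *Pax8* was 43.6 (95% interval 7.58 to 1743), and without adult pool 2 it was at least 9.45.

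*Pax4*, a factor of pancreatic endocrine cells, was the only member at 0 in every E15 pool, with 1, 2 and 10 counts in the adult. The adult excess was at least 7.46-fold, but without adult pool 3, which held 10 of the 13 counts, the remaining 3 counts were no more than the floor. *Pax9*, of teeth and pharyngeal pouches, had 5, 5 and 3 counts at E15 against 6, 1 and 16 in the adult. The ages overlapped for *Pax9* and it was not called at a log2 fold change of -1.58 (SE 0.89), which was -2.15 and called without adult pool 2 and -0.50 without adult pool 3. *Prrxl1*, a homeobox gene of sensory neurons in the dorsal root ganglia, had 20, 31 and 43 counts at E15 against 51, 50 and 59 in the adult. In normalized counts *Prrxl1* was 2.94-fold higher in the adult without overlap (log2 fold change -1.55, SE 0.35), but at -0.75 and not called under scaling by total counts only.

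The LIM factors include genes that separate cortex from hem and specify early neurons. *Lhx2*, which maintains cortical identity against hem fate, had 1850, 531 and 1350 counts at E15 against 33, 64 and 42 in the adult. The means were 994 ± 556 and 62.5 ± 18.7, a 15.8-fold difference (log2 fold change 3.98, SE 0.47). *Lhx5*, active in the cortical hem, had 249, 550 and 470 counts at E15 against 0, 1 and 1 in the adult. Its ratio was 369 (95% interval 102 to 3046). *Lhx9*, of thalamus and gonad, had 132, 54 and 150 counts against 0, 5 and 0, and was at least 42.3-fold higher without adult pool 2, which held every adult count (fitted 37.5-fold with it). *Lhx6*, a factor of interneurons from the medial ganglionic eminence, had 79, 182 and 137 counts against 3, 6 and 4 (17.4-fold). *Lhx1* had 57, 32 and 48 counts against 0, 4 and 1 (log2 fold change 3.94, SE 0.73), and without adult pool 2 a ratio of 51.8 (95% interval 9.14 to 2059.7). *Lmx1b*, of midbrain dopamine neurons and the dorsal limb, had 1, 5 and 8 counts at E15 against 0 in the adult. It was at least 2.71-fold higher, or at least 1.75-fold without E15 pool 3, and was not called in fits without any single adult pool (log2 fold changes of 4.97 to 4.99). *Lmx1b* was also not called with DESeq2 (3.86), limma-voom (2.27) or no count filter (4.91).

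POU class III factors act in neural progenitors and early neurons, and the 4 in the set were all higher at E15. *Pou3f2* had 121, 109 and 126 counts at E15 against 2, 1 and 1 in the adult. Its E15 pools were nearly even, at 93.9 ± 8.65 normalized counts, and the fitted difference was 48.4-fold. *Pou3f3* had 696, 163 and 420 counts against 14, 24 and 1 (log2 fold change 4.27, SE 0.72). Here single pools mattered more, with 3.68 without E15 pool 1 and 4.98 without adult pool 2. *Pou3f4* had 28, 38 and 32 counts against 1, 2 and 0, a ratio of 19.0 (95% interval 6.30 to 93.6) that was 37.0 (95% interval 6.49 to 1478) without adult pool 2. *Pou3f1*, which also times Schwann cell maturation, had 13, 18 and 21 counts at E15 against 0 in the adult (at least 10.1-fold).

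The class II POU genes, the octamer-binding factors, showed no shared direction. *Pou2f1*, expressed in most cells, had 99, 168 and 131 counts at E15 against 50, 65 and 34 in the adult. The ages overlapped after scaling and the log2 fold change was 0.63 (SE 0.30), not called, and 0.78 and called without E15 pool 1 and 1.44 and called under scaling by total counts only. *Pou2f2*, known from B cells, had 14, 15 and 18 counts against 0, 2 and 4. Its log2 fold change of 2.14 (SE 0.80) was called, but not without any single one of E15 pools 2 and 3 and adult pools 1 and 2 (1.56 to 2.18), and was 3.07 without adult pool 3. With DESeq2 *Pou2f2* was also not called (2.18). *Pou2f3*, the factor of tuft cells and skin keratinocytes, had 7, 8 and 3 counts at E15 against 29, 4 and 15 in the adult. It was called in the adult at a log2 fold change of -2.19 (SE 0.77) although adult pool 2 lay within the E15 range, and it was not called without E15 pools 2 or 3 or adult pools 1 or 3 (-2.43 to -1.44) or under scaling by total counts only (-1.38).

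*Six4*, of muscle, ear and kidney, and *Six3*, which establishes the anterior forebrain and eye, differed in direction with TMM scaling. With scaling by total counts only, *Six4* was near level. *Six4* had 485, 264 and 289 counts at E15 against 314, 414 and 327 in the adult, 1.73-fold higher in the adult with TMM scaling (log2 fold change -0.79, SE 0.25) but 0.01 under scaling by total counts only. It was not called without E15 pool 2 (-0.62), E15 pool 3 (-0.67) or adult pool 2 (-0.73). *Six3* had 340, 1112 and 1025 counts at E15 against 156, 166 and 189 in the adult. This was 2.79-fold higher at E15 (log2 fold change 1.48, SE 0.36), with E15 pool 1 low.

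**Figure D3:**
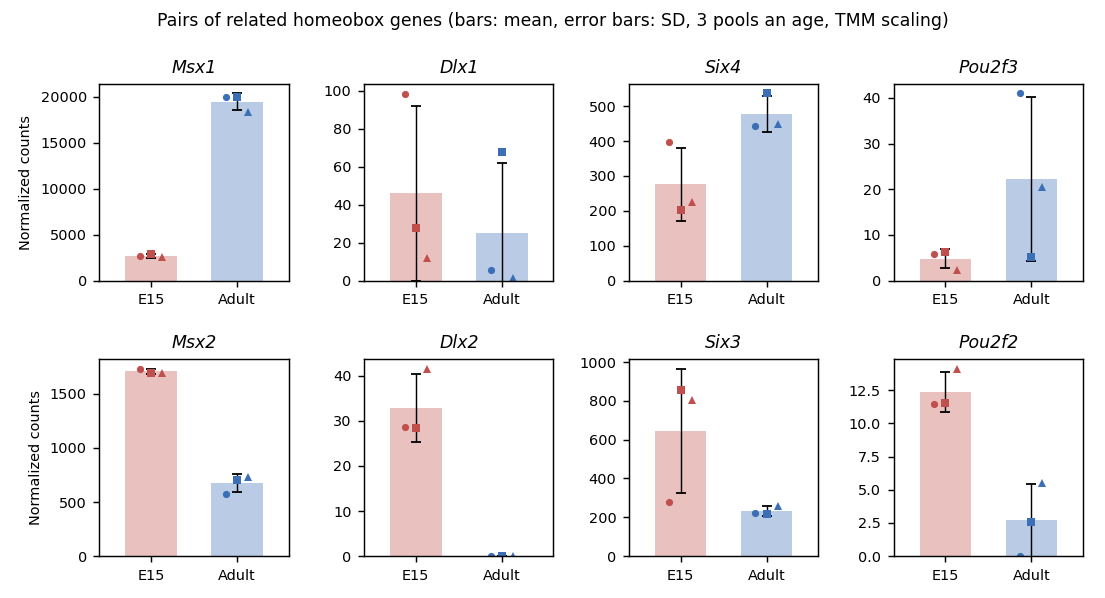
Normalized counts of 4 pairs of related genes at E15 (red) and in the adult (blue), with bars for the mean, error bars for the SD and symbols for the 3 pools. *Msx1* averaged 2677 at E15 and 19429 in the adult while *Msx2* averaged 1707 and 672, and *Dlx1* overlapped between the ages. The adult direction of *Six4* holds with TMM scaling, but *Six4* is near level under scaling by total counts only.

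The Pbx and Meis proteins bind DNA together with Hox and other homeodomain factors. *Pbx2*, *Pbx3* and *Pbx4* were modestly higher at E15, with log2 fold changes between 1.04 and 2.01. *Pbx2* had 3902, 4028 and 3566 counts against 832, 926 and 812 (2.60-fold). Its pools did not overlap between the ages. *Pbx3* had 558, 777 and 654 counts against 191, 188 and 180 (2.06-fold). *Pbx4* had 109, 169 and 136 counts against 10, 31 and 19 (4.01-fold). The Meis genes were less alike. *Meis2*, a factor of striatal and cortical neurons and of mesenchyme, had 791, 100 and 388 counts at E15 against 3, 10 and 8 in the adult. This gave a log2 fold change of 5.15 (SE 0.82), and 4.30 without E15 pool 1. *Meis1* had 95, 130 and 91 counts against 45, 47 and 16, and was not called at 0.76 (SE 0.39), but was called at 1.57 under scaling by total counts only and at 1.22 with the 10 highest genes left out of the totals.

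*Tgif1*, a corepressor of the TGF-beta and retinoic acid pathways that is mutated in holoprosencephaly, had 750, 639 and 671 counts at E15 against 24, 34 and 34 in the adult. Its difference of 13.0-fold (log2 fold change 3.70, SE 0.20) was steady over pools. The Iroquois genes, which pattern neural tube and heart, had fewer counts. *Irx6* had 160, 160 and 146 counts against 17, 14 and 13 (6.11-fold). *Irx5* had 18, 25 and 24 counts at E15 against 1 in the adult (ratio 38.9, 95% interval 6.75 to 1559.7, with a bound of at least 8.44 without adult pool 2). *Irx4* had 7, 4 and 8 counts at E15 against 0 in the adult (at least 3.68-fold). *Irx2* had 13, 4 and 7 counts against 2, 0 and 0, a ratio of 6.97 (95% interval 1.73 to 60.8) that was not called, and at least 3.16 and called without adult pool 1. *Irx2* was also called under scaling by total counts only, at a log2 fold change of 3.39.

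The zinc finger homeobox genes were among the members with many counts in every E15 pool, and all but *Zeb2* also in every adult pool. *Zeb2*, a repressor of E-cadherin that also drives neural crest and interneuron migration, had 1222, 1159 and 1146 counts at E15 against 34, 37 and 46 in the adult. It was 17.5-fold higher at E15 (means 930.5 ± 60.5 and 53.1 ± 8.71). Its relative *Zeb1*, with 2200, 2533 and 2267 counts against 482, 538 and 457, differed by 2.75-fold. *Zfhx3* and *Zfhx4* are large factors of neuronal differentiation. *Zfhx3* had 1089, 1917 and 1444 counts against 257, 299 and 288 (3.05-fold higher at E15), with pool 2 the highest at E15. *Zfhx4* had 1750, 1775 and 1735 counts against 312, 453 and 410 (2.61-fold), nearly level over the E15 pools.

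In the CUT class, the chromatin organiser *Satb1* had 1712, 1682 and 1518 counts at E15 against 1644, 1540 and 1671 in the adult. With TMM scaling this was 1.70-fold higher in the adult without overlap (log2 fold change -0.77, SE 0.11), but the raw counts were nearly level and the log2 fold change was 0.04 under scaling by total counts only. *Onecut1*, a liver and pancreas factor, had 5, 8 and 7 counts at E15 against 1 in the adult (ratio 11.6, 95% interval 1.86 to 481, with a bound of at least 2.52 without adult pool 2). Its log2 fold change of 3.22 was called, but not without E15 pools 2 or 3 or adult pools 1 or 3 (2.74 to 3.17), nor with DESeq2 (3.42). *Onecut3* had 1, 3 and 5 counts at E15 against 0 in the adult (at least 1.74-fold).

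Many of these genes were scarcely read in the adult. Over the 3 adult pools, 10 members had 0 counts, 9 had 1 to 3 and 27 had 10 or fewer, whereas at E15 3 members had 10 or fewer. Shares of all genes at these counts were not computed. The members were chosen on this contrast, so nothing is read from these numbers. Intervals and floors cover counting error only. For a gene at 0 in the adult, leaving out an adult pool lowers the bound by construction, as 3 counts are then set against less adult depth. Mean normalized counts of 1000 or more were reached by 9 members at E15 and by 3 in the adult, *Msx1*, *Pbx2* and *Satb1*.

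Within an age the members also varied between pools. Among the 43 members with a mean of at least 20 normalized counts, the median coefficient of variation over the E15 pools was 22.8%, compared with 14.9% over 13557 genes with the same minimum. Their median means were 241 and 454, so the members had fewer counts, and the part of the count level in this was not tested. In the adult the medians were 13.5% over 27 members and 9.33% over 12575 genes, with median means of 72.7 and 483. These within-age values were not used to choose the members.

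The variation was of more than one kind. For each gene the log2 ratio of a pool to the mean of the other pools of its age was taken. In E15 pool 2, *Meis2* (-2.62), *Emx1* (-2.24), *Pou3f3* (-1.84), *Lhx2* (-1.65) and *Lhx9* (-1.43) were low by over 1. These 5 of 43 members stand beside 1.24% of all genes. The same genes except *Emx1* (0.95) and *Lhx9* (0.44) were high by over 1 in pool 1, where *Dlx1* (2.29) joined them, 4 members beside 2.16% of all genes. A different set was low in E15 pool 1, *Barhl2* (-2.57), *Pax3* (-1.87) and *Six3* (-1.57), or 3 members beside 3.89% of all genes. *Barhl2* was also the member high by over 1 in pool 2 (1.20), beside 0.302% of all genes. In pool 3, *Dlx1* was low (-2.37), 1 member beside 0.443% of all genes, and 0 members were high, beside 0.221%.

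Marker lists moved with the first of these sets. The 13 markers of developing neurons that could be named had a median log2 ratio of -1.67 in E15 pool 2 and 1.06 in E15 pool 1, and their summed normalized counts ranged from 4383, in pool 2, to 8012 at E15. For 5 neural progenitor markers the medians were -0.63 and 0.47. Of the neuronal list 11 were called at E15 and 1, *Reln*, in the adult, beside 34.7% and 29.3% of all genes tested. *Neurod6* and *Nhlh1* were at 0 in every adult pool. *Reln* had 2430, 3217 and 2923 counts at E15 against 9026, 10388 and 9281 in the adult. The summed normalized counts of the list in the adult were 12942 to 14302. Most of that sum was *Reln*, so it does not give the level of the other neuronal markers. *Reln* was also a large part of the E15 sums and was highest in pool 2, where the median of the list was low. The range of the E15 sums therefore understates how far the other neuronal markers differed between pools. The lists with the lowest medians in E15 pool 1, where *Barhl2*, *Pax3* and *Six3* were low, were erythroid genes (-0.50) and choroid plexus epithelium (-0.30). In the adult, *Dlx1* was high in pool 2 (4.08), and the 5 neuronal markers with enough adult counts had a median of 2.74 there. How far cells of these kinds contributed to the counts of the homeobox genes was not tested.

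**Figure D4:**
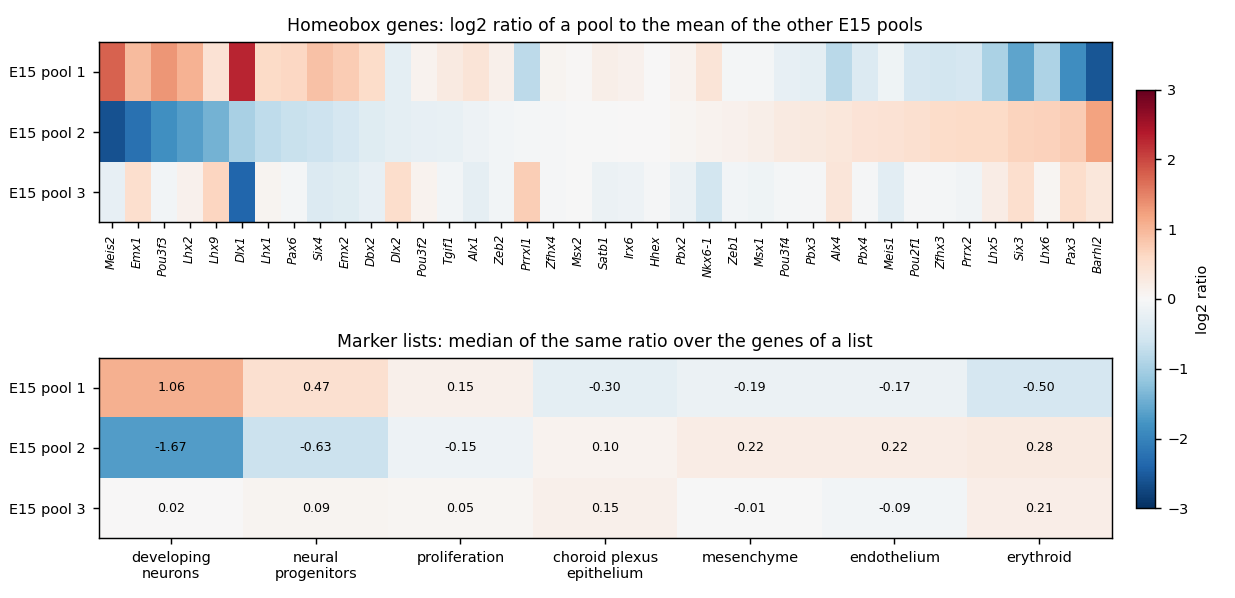
Log2 ratio of each E15 pool to the mean of the other E15 pools (color scale) for 39 homeobox genes ordered by their value in pool 2 (top), and its median over marker lists of 7 kinds with the value printed (bottom). At the left, *Meis2*, *Emx1*, *Pou3f3* and *Lhx2* are low in pool 2, where developing neuron markers have a median of -1.67, and at the right *Barhl2*, *Pax3* and *Six3* are low in pool 1.

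Many members were even over the E15 pools, among them *Msx2*, *Zfhx4*, *Zeb1*, *Irx6* and *Hhex*, whose log2 ratios stayed between -0.15 and 0.14. Others leaned the same ways by less than 1. In pool 1, *Lhx5* (-0.96), *Lhx6* (-0.93), *Alx4* (-0.80) and *Prrxl1* (-0.80), among others, leaned the way of *Barhl2*. In pool 2, *Dlx1* (-0.98), *Lhx1* (-0.76), *Pax6* (-0.66), *Six4* (-0.62) and *Emx2* (-0.51) leaned the way of *Lhx2*.

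Some of the genes lie next to each other, in the gene order of RefSeq on GRCr8 where 60 members were found. *Irx4* and *Irx2*, *Irx6* and *Irx5*, and *Dlx1* and *Dlx2* are neighbours with no gene between. The Iroquois pairs had the same direction at higher E15 counts, with log2 fold changes of 5.36 and 2.65 and of 2.61 and 4.94. *Dlx1* (0.86) and *Dlx2* (8.05, with 0 adult counts) differed more within the pair.

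Homeobox genes outside the pattern could be looked at only where the same table names them. Of 56 such genes on a list, 24 were named, 23 fitted, 16 called at E15 and 4 in the adult. Of all genes tested, 34.7% were called at E15 and 29.3% in the adult. The median log2 fold change was 4.65, beside 0.14 over all genes tested. These too were named only because the authors had called them, so nothing is read from their shares. *Prox1*, a factor of lymphatic endothelium and of dentate granule neurons, had 419, 275 and 324 counts at E15 against 2, 3 and 0 in the adult (log2 fold change 6.82). *Dmbx1*, of the midbrain, had 138, 169 and 134 counts at E15 against 0 in the adult. The 4 called in the adult were *Hopx* (-4.00), an atypical homeodomain protein without DNA binding of its own, *Cdx4* (-3.48), *Zhx1* (-2.04) and *Zhx3* (-1.07). Of the members, *Pou2f1* and *Onecut3* stood nearest to the end of the authors' table in its row order, with counts of 99, 168 and 131 against 50, 65 and 34 for *Pou2f1* and of 1, 3 and 5 against 0 for *Onecut3*, and genes outside the table have no name here.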

How the data were processed

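The authors deposited raw counts, one whole number for each Ensembl gene and library, after mapping trimmed reads with Bowtie 0.12.7 to the rat genome (Ensembl release 61) and counting unique placements with HTSeq 0.4.7p4. The deposited table of called genes also holds log2 abundances, log2 fold changes and p-values from edgeR 2.4.0, in which only identifiers, names, descriptions and the order of rows were read here.

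Counts were fitted with edgeR 4.0.16 in R 4.3.3 (TMM, age as the only term, more than 10 counts in all, quasi-likelihood test, Benjamini-Hochberg adjustment over 16643 genes, threshold 0.05) and tested on simulated data. Normalized counts are scaled to a library of 19265016. The common biological coefficient of variation was 18.2%. Nothing says that pools came from separate litters. The p-values set the age difference against the spread between these pools, and may not extend to other litters.

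Floors are 3 counts over an age, and 95% intervals are exact binomial. Pool ratios used a pseudocount of 0.5 and a mean of at least 20. The members, lists and rules were chosen with earlier results of these data known. Genes given in full were the 12 largest changes in each direction with a mean of at least 100, the 8 highest means at each age, genes at 0 at one age, and forebrain, mesenchyme and vessel factors. Other members stand as examples of their families. Results of some genes are not reported here, though counts over members include them. Alternatives covered scaling, filters, DESeq2 1.42.0, limma-voom 3.58.1, an exact test, a replicate term and leaving out each pool. Homeobox genes could not be named independently of the table, since no map from Ensembl identifiers to symbols was used here. Figures were drawn with matplotlib 3.10.9.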

Additional observations from a re-analysis of the deposited data

How the results depend on the processing

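Of the members called, 48 at E15 and 6 in the adult, the numbers were equal with RLE and upper quartile scaling. Calls over all 16643 genes tested were 5773 at E15 and 4879 in the adult. They were 5756 and 4904 with RLE, and 6327 and 4370 with upper quartile scaling. Members were chosen on this contrast, so nothing is read from their numbers. Members called were 51 and 2 with scaling by total counts only, and 51 and 4 with the 10 highest genes left out of the totals. All genes called were then 9799 and 2292, and 8071 and 3196. Without a filter 46 and 6 members were called, beside 5621 and 4871 of 20183 genes. With filterByExpr 41 and 4 were called (48 members fitted), beside 5400 and 4817 of 14587 genes. DESeq2 called 44 and 6 members, beside 5690 and 4930 genes, and limma-voom 46 and 5, beside 5753 and 4959. An exact test of common dispersion called 52 and 7 members, beside 6158 and 4911 genes. With a pool left out the members called ranged from 43 to 48 at E15 and from 4 to 6 in the adult. All genes called then ranged from 5009 to 6218 and from 4327 to 5449. Scaling by total counts moved the median over all tested genes from 0.14 to 0.95 on the log2 scale and put 81.0% of all calls at E15 in place of 54.2%, and 96.2% of the members' calls in place of 88.9%. Under it *Satb1* (0.0385) and *Six4* (0.00997) came out near level and were not called. *Prrxl1* (-0.75) and *Pou2f3* (-1.38) kept their direction but were not called, and *Irx2* (3.39), *Meis1* (1.57) and *Pou2f1* (1.44) gained a call. *Dlx1* reversed without E15 pool 1 (-0.35), and its value was 3.64 without adult pool 2. The causes were not tested beyond what these settings construct.

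With the replicate number as a block (replicate block) 43 and 5 members were called, beside 5320 and 4608 of all 16643 genes. Deviations of same-numbered pools of the ages had r of -0.019, -0.011 and -0.061 over genes, and those of differently numbered pools -0.025 to 0.053. The labels give no pairing beyond the number, and whether same-numbered pools shared a batch was not tested. The analysis of homeobox genes named without the authors' table was not run. Differences of genes with few adult counts are limited by depth, as their intervals show.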
